A study of Mus musculus with 8 samples.

Results

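The mitochondrial protein import machinery carries proteins made in the cytosol into mitochondria. It was followed through 34 of the 20170 genes in a single-cell RNA-sequencing count matrix of mouse splenic T cells. Its members were all genes whose symbol starts with Timm or Tomm, together with Pam16, Samm50, Mtx1, Mtx2, Chchd4, Dnajc19 and Grpel1. The rule used no measured value, although the list was proposed with earlier results of these data known.

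Nearly all mitochondrial proteins are encoded in the nucleus and enter through the TOM complex, a pore in the outer membrane with its own receptors. From there, SAM inserts barrel-shaped proteins into the outer membrane, and the small TIM chaperones of the intermembrane space (IMS) escort hydrophobic proteins while Chchd4 folds proteins by forming disulfide bonds. TIM22 inserts carrier proteins into the inner membrane, and TIM23 passes proteins with a presequence into the matrix, where the PAM motor pulls them in. T cells enlarge their mitochondria when they are activated, so these genes are read here against activation and against loss of the complex II subunit Sdha. The members comprised 9 TOM genes, 3 SAM genes, 8 IMS genes, 2 TIM22 genes, 5 TIM23 genes, 4 PAM genes and 3 genes taken by symbol alone. The last group held Timmdc1, which is an assembly factor of respiratory complex I, the cytosolic cochaperone Tomm34, and Tomm6os, a noncoding RNA antisense to Tomm6.

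Pan-T cells were magnetically purified from spleens of WT mice and of mice called SDHA-KO, whose genotype is Sdha fl/fl with CD4-Cre, a Cre driven by Cd4 regulatory sequences that acts in developing T cells. The cells were cultured alone (unstimulated) or with antibodies to CD3 (5 μg/mL) and to CD28 (2.5 μg/mL) over 48 hours (stimulated), and dead cells were removed before sequencing. Each of the 4 groups had 2 libraries, numbered as replicates without a statement that they came from separate mice, so p values measure the spread between these libraries, which may be technical. The comparisons ask how import genes respond to activation, to SDHA loss, and to both together in CD4 and CD8 cells.

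The study's annotation put 12846 cells into the 8 libraries, and unique molecular identifiers (UMIs, 1 per captured transcript) were summed per library over the cells annotated CD4 and over those annotated CD8. Libraries held 6776027 to 34087903 UMIs in the CD4 class and 3640136 to 22311319 in the CD8 class, and any pair of libraries shared at most 3 cell barcodes. CPM gives the UMIs of a gene, or of several genes added up, relative to the library total. For a single gene that total was multiplied by a factor for composition (TMM), and for summed members or markers it was not. Single-gene and summed values are therefore on different scales. Sdha in stimulated CD4 cells was 74.0 and 73.1 CPM in WT and 26.5 and 26.4 in SDHA-KO. In stimulated CD8 cells it was 76.2 and 74.9 against 53.3 and 50.4. In a stricter CD8 class defined below it was 76.2 and 74.3 in WT against 29.1 and 26.9 in SDHA-KO. That class kept 33.1 and 37.1% of the stimulated SDHA-KO CD8 cells, so Sdha was higher in the SDHA-KO cells it left out. Because 3′ tags outside the deleted part can persist, these values check the genotype only in part. CD3 and TCR markers were detected in every sum. Summed γδ T cell markers in the stimulated CD8 class were 22.8 and 26.5 CPM in WT against 288.4 and 289.5 in SDHA-KO, and the coreceptor genes Cd8a and Cd8b1 together were 464.3 and 498.7 against 211.0 and 273.3. The γδ markers were also higher in SDHA-KO in the unstimulated CD8 class, at 258.2 and 189.1 CPM against 31.9 and 29.8 in WT, and in the stimulated CD4 class, at 23.4 and 17.1 against 6.09 and 6.91. The NK cell markers in the stimulated CD8 class were 2.72 and 2.38 CPM in WT and 11.2 and 8.85 in SDHA-KO. The B cell markers were 344.6 CPM in the stimulated CD8 sum of SDHA-KO replicate 1 and 64.1 in replicate 2, against 50.0 to 53.7 in WT. UMIs from mitochondrially encoded genes were over 10% of the total in 59.0 to 60.9% of stimulated WT CD4 cells and 70.7 to 75.7% of stimulated WT CD8 cells, against 9.97 to 13.1% and 35.0 to 35.9% in SDHA-KO. Such cells were nearly absent without stimulation. In sums of this kind, fewer cells of one kind and less RNA per cell cannot be told apart.

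Of the 34 members, 31 had enough UMIs to be tested in every fit. Timm8a2, Tomm20l and Tomm6os were not tested, with at most 11, 21 and 14 UMIs in any sum. The most abundant members over the CD4 sums were the receptor Tomm20, with a mean of 365.5 CPM, and the small TOM subunit Tomm7, with 363.1 CPM. Counts of 3′ tags need no scaling by length, so these levels can be set side by side, although capture may differ between genes. Tomm20 in CD4 sums was 276.1 and 276.7 CPM in unstimulated WT, 305.6 and 231.2 in unstimulated SDHA-KO, 440.5 and 451.2 in stimulated WT and 442.4 and 500.4 in stimulated SDHA-KO, so it separated by state and not by genotype.

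The most abundant gene of each other module is given in the same order of groups. Timm13, a small TIM chaperone, was 134.8 and 132.2, 152.1 and 128.8, 208.2 and 216.0, and 319.0 and 371.7 CPM in the CD4 class. Timm23, the channel of TIM23, was 109.2 and 103.2, 117.3 and 108.7, 211.1 and 203.4, and 263.1 and 306.2 CPM. Both rose with stimulation and stood highest in stimulated SDHA-KO. Grpel1, the exchange factor of the motor, was 71.0 and 73.9, 70.5 and 65.9, 108.0 and 108.1, and 121.25 and 143.9 CPM. Samm50, the core of SAM, was 52.9 and 55.3, 54.2 and 51.8, 70.9 and 72.5, and 93.0 and 102.5 CPM. Timm22, the channel of TIM22, was 22.3 and 26.7, 27.7 and 23.97, 34.04 and 37.5, and 53.8 and 59.9 CPM. These 3 followed the same order of states, with no overlap of genotypes after stimulation. Tomm34 was 35.1 and 39.1, 32.3 and 39.4, 31.4 and 33.0, and 38.3 and 41.5 CPM, so stimulated SDHA-KO lay above stimulated WT and the unstimulated genotypes overlapped. The lowest tested members were Timm29 with 5.71 CPM and Tomm40l with 8.34 CPM.

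Stimulation raised most of the machinery. The summed members were 2027 and 2028 CPM in unstimulated WT CD4 cells and 3685 and 3736 CPM in stimulated ones. In the CD8 class they were 1994 and 2030 CPM without and 3762 and 3825 CPM with stimulation, so the states did not overlap in either class. These sums were scaled by library totals alone, without the composition factors of the tests. In WT CD8 cells that scaling also raised the median of all genes, as given below, so part of this rise was shared with other genes. In WT CD4 cells, 26 of 31 members rose and 0 fell at an adjusted p under 0.05 by edgeR's quasi-likelihood test with Benjamini-Hochberg adjustment over all genes, when 66.3% of all 14264 genes tested were called, 36.2% higher and 30.1% lower. The median log2 change was 0.67 over the members and 0.08 over all genes.

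The largest rises in WT CD4 cells came from the IMS and from the outer membrane pore. Timm8a1, a small TIM chaperone, went from 32.4 and 28.5 CPM to 122.5 and 116.7 CPM (log2 fold change 1.98 ± 0.11 SE, adjusted p = 4.3e-08). Chchd4, the import oxidoreductase of the IMS, went from 12.0 and 10.3 CPM to 42.8 and 43.9 CPM (1.96 ± 0.14, adjusted p = 3.2e-07). The pore-forming subunit Tomm40 went from 42.8 and 41.4 CPM to 159.7 and 153.7 CPM (1.90 ± 0.08, adjusted p = 5.1e-09). In each of these genes both stimulated libraries lay far above both unstimulated ones. All 7 tested IMS genes, all 5 TIM23 genes, all 3 SAM genes and all 4 PAM genes passed upward, along with 6 of 8 TOM genes. At the other end, Tomm7 was 371.4 and 377.0 CPM before and 335.5 and 422.1 CPM after stimulation, so its groups overlapped and its log2 difference of 0.02 was not called.

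WT CD8 cells had 24 of 31 members called, 21 of them higher and 3 lower, against 65.7% of all 13095 genes, 35.5% higher and 30.3% lower. Their median was 0.54, and that of all genes 0.09. Timm50, the TIM23 receptor for presequences, rose from 18.8 and 19.4 CPM to 69.0 and 64.8 CPM (1.80 ± 0.11, adjusted p = 4.4e-08). Tomm40 went from 51.7 and 46.0 CPM to 171.7 and 158.1 CPM (1.76 ± 0.11), and Timm8a1 from 36.3 and 36.4 CPM to 111.1 and 118.6 CPM (1.66 ± 0.10). The stimulated libraries were above the unstimulated ones for all 3 genes. The 3 lower calls had smaller values. Tomm34 went from 38.8 and 40.8 CPM to 26.7 and 28.3 CPM (-0.54 ± 0.11), Tomm7 from 402.4 and 418.7 CPM to 259.5 and 336.7 CPM (-0.46 ± 0.11), and the small TIM gene Timm10b from 131.7 and 136.5 CPM to 118.1 and 118.9 CPM (-0.18 ± 0.07). None of the 3 overlapped between states in these levels scaled for composition, but both the levels and the calls depended on scaling. Scaled by library totals alone, which moved the median of all genes from 0.09 to 0.57, 28 members rose and 0 fell, with values of -0.055, 0.018 and 0.30 for these 3 genes. In cells with a mitochondrial share under 10%, Timm10b was called higher instead of lower (0.33 ± 0.07, adjusted p = 0.0018 by edgeR), and Tomm7 was not called (0.082 ± 0.096, adjusted p = 0.47).

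**Figure D1:**
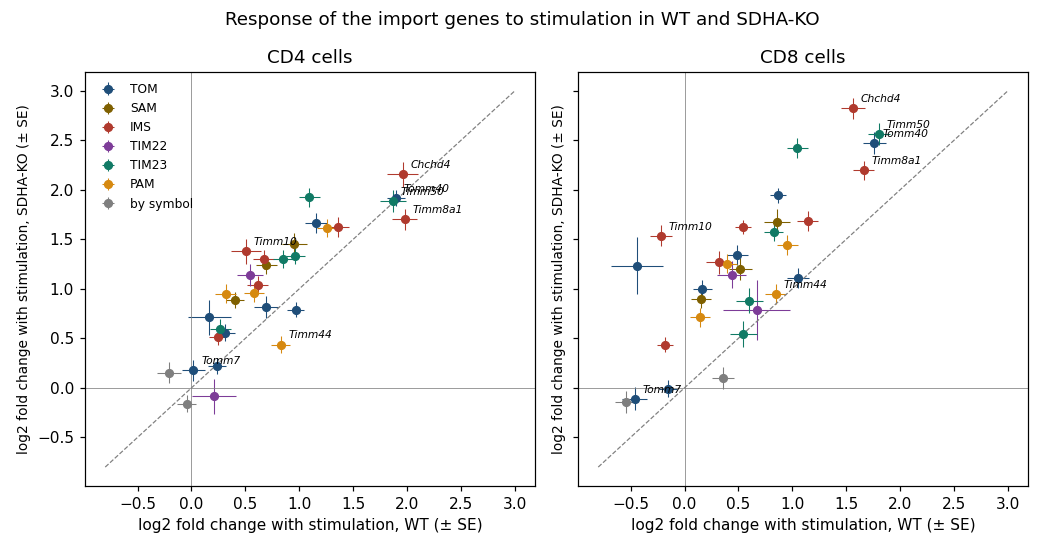
Log2 fold change of each of 31 import genes with stimulation in WT (x axis) and in SDHA-KO (y axis), with SE bars, in CD4 and CD8 sums, coloured by module. Most genes lie above 0 on both axes and, most visibly in CD8 cells, above the dashed line of equal response, and the axes share no library.

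SDHA-KO cells also raised their import genes. In CD4 cells 27 of 31 members rose and 0 fell, against 69.8% of all genes called (36.6% higher, 33.2% lower), with a median of 1.04 over the members and 0.03 over all genes. In CD8 cells 27 rose and 0 fell, against 68.2% called (37.2% higher, 30.9% lower), with a median of 1.23 over the members and 0.10 over all genes. Chchd4 in SDHA-KO CD8 cells went from 14.7 and 14.5 CPM to 100.2 and 106.5 CPM (2.82 ± 0.11, adjusted p = 2.1e-09), the largest of these changes, followed by Timm50 (2.56 ± 0.11) and Tomm40 (2.47 ± 0.11).

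Without stimulation, no member differed by genotype past the threshold. The summed members were 2027 and 2028 CPM in WT and 2111 and 1947 CPM in SDHA-KO CD4 cells, and 1994 and 2030 CPM against 2183 and 1960 CPM in CD8 cells, so the groups overlapped in both classes. By edgeR 0 of 31 members were called in CD4 cells, where 1.1% of all genes were, and 0 of 31 in CD8 cells, where 0.947% were. At an unadjusted p under 0.05 the counts were 3 and 4, and DESeq2 also called 0 in both. Log2 differences ran from -0.32 (Timm21) to 0.51 (Timm29) in CD4 cells and from -0.97 (Tomm40l) to 0.34 (Timm29) in CD8 cells, with SEs of 0.11, 0.22, 0.33 and 0.40 for these 4 values. Timm29 and Tomm40l were the members of lowest count. These values do not show that the genotypes were alike.

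In stimulated CD4 cells most of the machinery was higher in SDHA-KO. This comparison and the response of WT cells use the same stimulated WT libraries. Of 31 members 19 rose and 1 fell, against 43.2% of all genes called, of which 22.7% were higher and 20.5% lower. The members' median log2 difference was 0.31, against -0.00094 over all genes. Timm10, a small TIM chaperone that pairs with Timm9, was 33.2 and 35.0 CPM in WT and 57.8 and 74.0 CPM in SDHA-KO (0.95 ± 0.12, adjusted p = 8.9e-05). Timm9 was 48.1 and 46.5 CPM against 74.1 and 85.4 CPM (0.75 ± 0.08, adjusted p = 3.7e-05), and its gene overlaps Tomm20l in the annotation. Timm17a, a channel subunit of TIM23, was 96.9 and 98.7 CPM against 149.3 and 179.0 CPM (0.75 ± 0.08, adjusted p = 5.3e-05). For these 3 genes both SDHA-KO libraries were above both WT libraries, and replicate 2 of SDHA-KO was the higher.

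The single member that fell was Timm44, which tethers the motor chaperone to the TIM23 channel. It was 58.3 and 56.0 CPM in WT and 43.3 and 44.3 CPM in SDHA-KO, with no overlap (-0.38 ± 0.08, adjusted p = 0.0020). Its motor partners Dnajc19 (0.61 ± 0.09), Pam16 (0.31 ± 0.08) and Grpel1 (0.30 ± 0.08) rose in the same cells. All 3 SAM genes rose, led by Mtx2 (0.61 ± 0.08), as did 6 of 7 IMS genes. Among 8 TOM genes only the small subunit Tomm5 (0.69 ± 0.10) and the pore paralog Tomm40l (0.62 ± 0.16) passed. The receptors Tomm20 (0.08 ± 0.11), Tomm22 (0.18 ± 0.08) and Tomm70a (-0.04 ± 0.07) and the pore Tomm40 (0.09 ± 0.07) did not.

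The difference was larger in stimulated CD8 cells. The summed members were 3762 and 3825 CPM in WT and 5701 and 5951 CPM in SDHA-KO, against 3685 and 3736 CPM and 4324 and 4883 CPM in the CD4 class. Of 31 members 25 rose and 1 fell, when 50.4% of all genes were called, 26.8% higher and 23.5% lower. The median was 0.66 over the members and -0.0096 over all genes. All 19 members that rose in CD4 cells also rose in CD8 cells, and the 6 added were Tomm20, Tomm22, Tomm40, Tomm70a, Timm50 and Timm8a1. CD4 and CD8 sums of a library come from one culture, so the classes are not independent repeats.

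Timm10 was 33.8 and 33.2 CPM in stimulated WT CD8 cells and 97.0 and 101.8 CPM in SDHA-KO (1.57 ± 0.08, adjusted p = 4.3e-07). Timm17a was 95.9 and 98.6 CPM against 227.7 and 245.9 CPM (1.28 ± 0.08, adjusted p = 1.1e-06). Chchd4 was 44.2 and 43.2 CPM against 100.2 and 106.5 CPM (1.24 ± 0.07, adjusted p = 8.8e-07). Both SDHA-KO libraries lay above both WT libraries in each case, by more than the gap between libraries of a group. Over all cells, Timm10 did not respond to stimulation in WT CD8 cells past the threshold (-0.22 ± 0.10, adjusted p = 0.082) and rose in SDHA-KO CD8 cells (1.54 ± 0.10). In cells with a mitochondrial share under 10%, all 7 tested IMS genes were called higher with stimulation in WT CD8. Timm10 there went from 35.2 and 39.1 CPM to 47.5 and 45.1 in WT, and from 30.1 and 35.7 to 104.4 and 109.6 in SDHA-KO. Timmdc1, the complex I assembly factor, fell from 34.3 and 35.5 CPM to 28.6 and 28.2 CPM (-0.30 ± 0.08, adjusted p = 0.012). That call was lost by DESeq2 (-0.29) and without WT replicate 2 (-0.29).

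**Figure D2:**
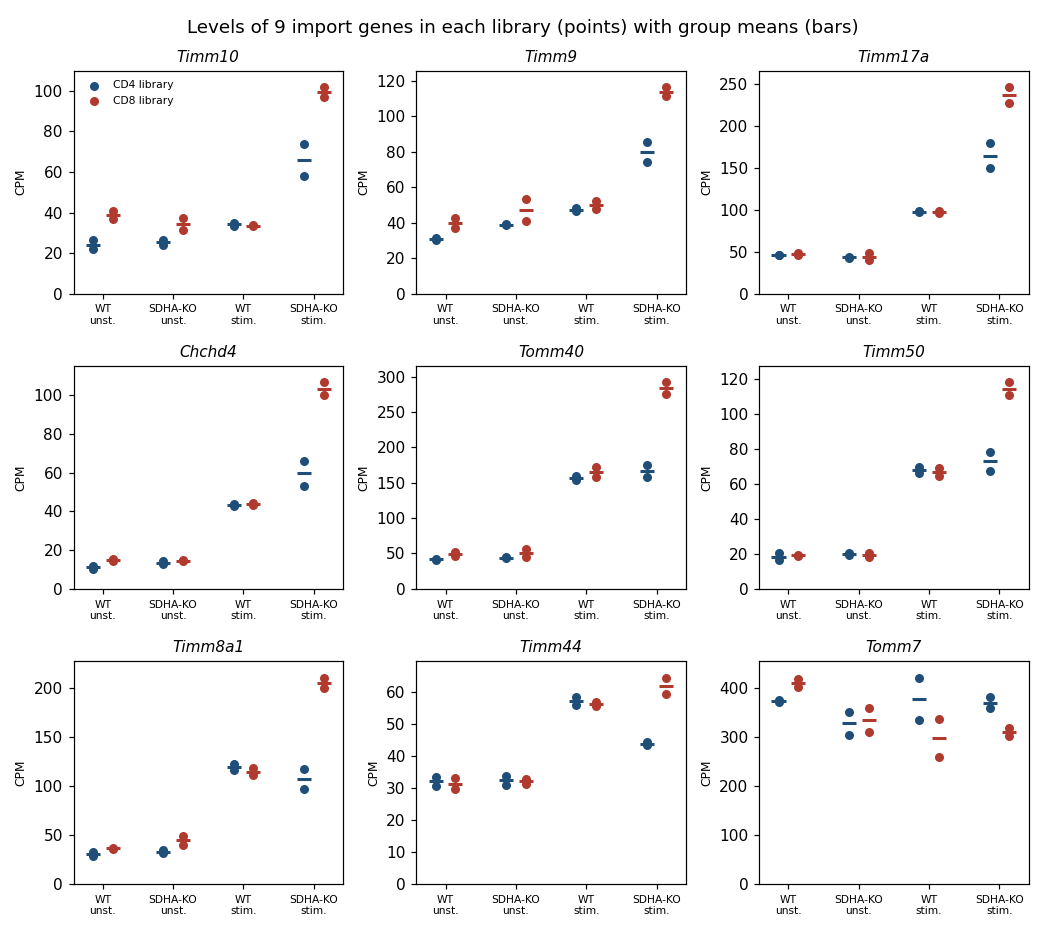
CPM (y axis, from 0) of 9 import genes in every library (points) with group means (bars) for CD4 and CD8 sums, in the 4 groups on the x axis. Timm10, Timm17a and Chchd4 stand highest in stimulated SDHA-KO CD8 cells, Tomm40, Timm50 and Timm8a1 separate the genotypes in stimulated CD8 cells and overlap between genotypes in stimulated CD4 cells, and Timm44 is lower in SDHA-KO than in WT in stimulated CD4 cells.

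The sequences just upstream of 5 of these genes are given to show what lies before the start sites of genes that moved together (Timm10, Timm17a, Chchd4), of the one that fell in CD4 cells (Timm44), and of the one whose genotype difference varied most by class (Timm8a1). Each is the 120 bases before the RefSeq start site on GRCm38.p6, read 5′ to 3′ on the gene's strand. The windows are chr2:84826901-84827020 (plus strand) for Timm10, chr1:135313738-135313857 (minus) for Timm17a, chr6:91473424-91473543 (minus) for Chchd4, chr8:4275906-4276025 (minus) for Timm44 and chrX:134541671-134541790 (minus) for Timm8a1, and none overlaps an annotated gene. Capitals mark exact matches on either strand to 5 motifs. One is CACGTG, the E-box. Another is CCAAT, bound by NF-Y. A further one is GGGCGG, the GC box. The core bound by ETS factors was spelled CCGGAAG. The motif of the NRF1 type was spelled GCGCATGCG, and no 2 of these strings contain each other.
Timm10: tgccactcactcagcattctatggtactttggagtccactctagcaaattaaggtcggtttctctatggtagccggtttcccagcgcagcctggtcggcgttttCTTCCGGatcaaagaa
Timm17a: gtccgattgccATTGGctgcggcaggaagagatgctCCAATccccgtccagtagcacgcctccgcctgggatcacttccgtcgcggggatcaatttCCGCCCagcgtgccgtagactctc
Chchd4: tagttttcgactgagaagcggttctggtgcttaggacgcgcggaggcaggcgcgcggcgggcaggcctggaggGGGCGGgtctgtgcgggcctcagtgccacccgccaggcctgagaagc
Timm44: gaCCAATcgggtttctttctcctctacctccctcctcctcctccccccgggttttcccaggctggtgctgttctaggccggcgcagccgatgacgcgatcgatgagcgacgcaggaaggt
Timm8a1: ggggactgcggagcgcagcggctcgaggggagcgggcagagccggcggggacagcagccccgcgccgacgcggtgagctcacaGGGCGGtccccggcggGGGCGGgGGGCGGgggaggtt

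In these windows no motif was common to the 3 genes that moved together. Timm10 holds an ETS core, Timm17a holds CCAAT and a GC box, and Chchd4 a GC box alone. RefSeq promoters were matched for 31 of 34 members, without Timm21, Tomm40l and Tomm7. Over 250 bases upstream, the ETS core was in 12 of 31 members (38.7%), 7.05% of all 27025 promoters and 14.2% of the 10590 promoters of genes tested in CD4 cells. The GC box was in 58.1% of members and 56.9% of tested genes, CCAAT in 32.3% and 36.7%, the E-box in 12.9% and 8.31%, and the NRF1-type motif in 3.23% and 3.01%. The members with an E-box were Timm8a1, Timm9, Tomm20 and Tomm20l. A match is a string of letters and was not measured as a binding site here.

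Because the share of cells with a high mitochondrial fraction differed by genotype, the same comparisons were made in cells under 10%. In those cells the genotype difference in CD4 cells was smaller, with 8 members higher and 4 lower against 32.8% of all genes called (16% higher, 16.7% lower) and a median of 0.09. The 8 that remained higher of the 19 were Timm10 (0.59 ± 0.12), Timm9 (0.54 ± 0.08), Timm22, Timm17a, Mtx2, Tomm5, Timm13 and Dnajc19. Grpel1 (-0.071), Timm10b (-0.11), Timm8b (-0.015) and Pam16 (-0.028) changed sign and were not called. The 4 that were lower were Timm44 (-0.61 ± 0.08), Timm8a1 (-0.54 ± 0.09) and the small TOM subunits Tomm6 (-0.50 ± 0.07) and Tomm7 (-0.40 ± 0.10). Tomm6 was 310.3 and 334.5 CPM in these WT cells and 221.5 and 235.3 CPM in SDHA-KO, without overlap, while in all CD4 cells its difference was -0.09 ± 0.08.

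In CD8 cells under 10%, 19 members were higher and 2 lower against 35.4% of all genes called (18.4% higher, 17% lower), with a median of 0.32. All 19 were among the 25 called in all cells, with Timm10 (1.21 ± 0.08), Timm9 (1.01 ± 0.11), Timm17a (0.97 ± 0.08) and Chchd4 (0.94 ± 0.08) at the top. The 2 lower members were again Tomm6 (-0.42 ± 0.07) and Tomm7 (-0.32 ± 0.09). The Timmdc1 difference was -0.066 ± 0.10 in these cells. Tomm6 is uncertain because Tomm6os lies antisense to it and whether counting used strand is not given in the sources used here.

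Low-fraction cells differed in RNA content. Their median UMIs per cell were 59713.5 and 59710.5 in stimulated WT CD4 libraries and 26637.5 and 26960.5 in SDHA-KO, and 64638 and 64273 against 47146.5 and 45781.5 in CD8. Member UMIs per cell in low-fraction CD4 cells were 235.2 and 236.1 in WT and 120.2 and 141.8 in SDHA-KO, while as CPM they were 4171 and 4210 against 4389 and 4951. The order of the genotypes was opposite per cell and in CPM. In low-fraction CD8 cells both scales put SDHA-KO higher, at 302.6 and 319.6 UMIs per cell against 281.6 and 272.0 in WT. Over all cells, per-cell values were 108.5 and 112.4 in WT against 107.1 and 129.6 in SDHA-KO for CD4, which overlapped, and 93.2 and 102.3 against 210.8 and 219.1 for CD8.

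**Figure D3:**
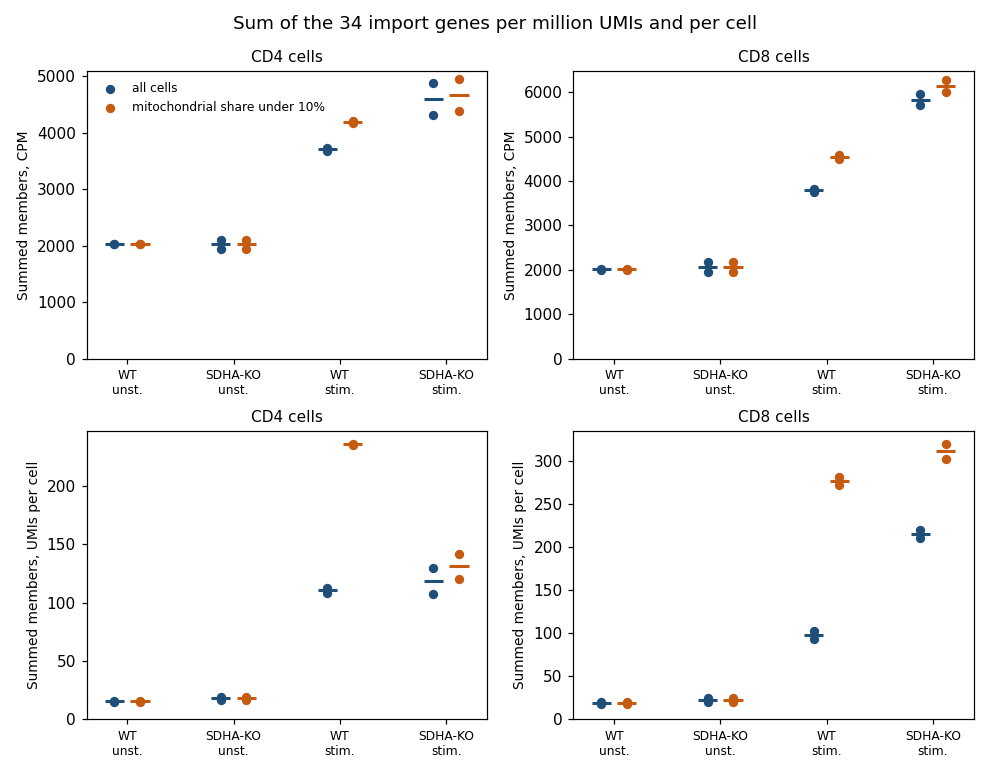
Sum of the 34 import genes as CPM (top) and as UMIs per cell (bottom), both from 0, for CD4 and CD8 sums in the 4 groups, with points for libraries and bars for means, in all cells and in cells with a mitochondrial share under 10%. In stimulated CD4 cells under 10%, SDHA-KO is higher as CPM and lower per cell, whereas in CD8 cells it is higher on both scales.

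Members were also compared between low-fraction and high-fraction cells of one library, counted against UMIs of nuclear genes only. In the stimulated WT CD4 libraries 25 and 24 of 31 members were higher in low-fraction cells, with median log2 ratios of 0.44 and 0.49. Over all nuclear genes tested, 23.4 and 23.1% were higher in low-fraction cells of those libraries, with medians of -0.96 and -0.96. The WT CD8 libraries gave 26 and 24 members, against 23.9 and 25.3% of all genes. The SDHA-KO libraries gave 22 and 25 members in CD4 cells, against 31.4 and 32.1% of all genes, and 20 and 19 in CD8 cells, against 29.2 and 29.8%. Timm29, Timmdc1 and Tomm70a were lower in low-fraction cells of all 8 stimulated sums. High-fraction cells had median UMIs per cell of 6517.5 to 11451, fewer than low-fraction cells of every library, so depth moved with the fraction, and its part in these shares was not tested.

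**Figure D4:**
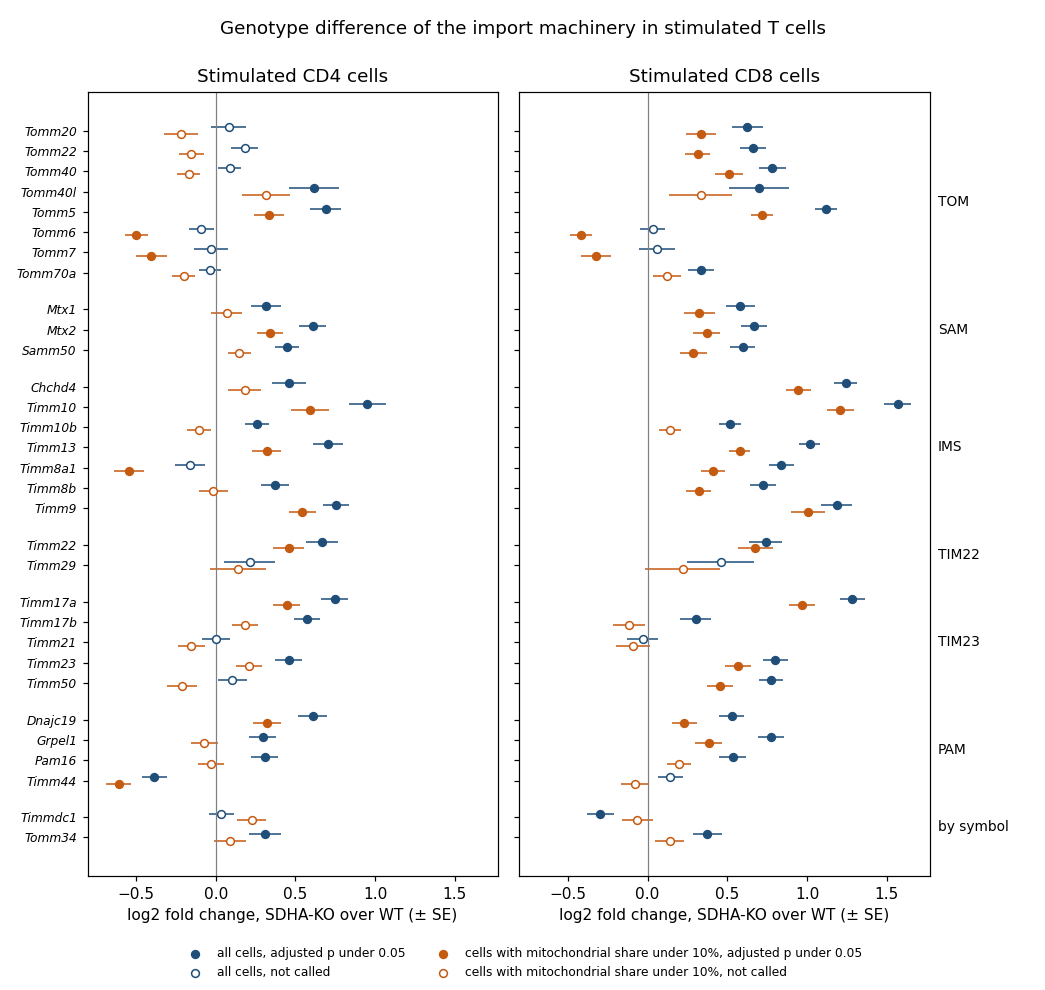
Log2 fold change of SDHA-KO over WT (x axis, SE bars) for 31 tested import genes in stimulated CD4 and CD8 sums, ordered by module, in all cells (blue) and cells with a mitochondrial share under 10% (orange), with filled points at an adjusted p under 0.05. Timm10 leads all cells of both classes, values shift to the left in low-fraction cells, and Tomm6 and Tomm7 are called lower there in both classes.

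The SDHA-KO effect was next compared between states, as the difference of the genotype differences. The sign of this difference gives direction and not size. In CD4 cells 10 members had a more positive effect after stimulation and 1, Timm44, a more negative one. Of all genes 21.4% were called (10.9% more positive, 10.5% more negative). Timm10 (0.87 ± 0.19, adjusted p = 0.0091) and Timm17a (0.83 ± 0.14, adjusted p = 0.0018) led. This count rested on single libraries, as it was 3 without WT unstimulated replicate 2 or SDHA-KO unstimulated replicate 2, 5 to 7 without WT unstimulated replicate 1 or either stimulated WT library, and 17 without SDHA-KO stimulated replicate 1. In cells under 10% it was 4 members, against 14.2% of all genes, and of these members Timm17a alone was more positive. In CD8 cells 22 members had a more positive effect and 0 a more negative one, and all 7 IMS genes were among the 22. Of all genes 23.8% were called (13.5% more positive, 10.2% more negative). Timm10 (1.75 ± 0.15, adjusted p = 6.9e-05) and Tomm40l (1.67 ± 0.38, adjusted p = 0.0093) led, and 9 remained called in cells under 10%, against 11.1% of all genes. With scaling by library totals alone, the CD8 count was 17 more positive and 1 more negative.

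The SDHA-KO effect in stimulated cells differed between classes for 21 of 31 members, 19 with a higher value in CD8 and 2 with a lower one, against 25.4% of all genes called (14.2% higher, 11.1% lower). The median difference was 0.32 for the members and 0.0024 for all genes. The gap was widest for Timm8a1, whose SDHA-KO effect was -0.16 ± 0.09 in CD4 and 0.84 ± 0.08 in CD8 cells (difference 1.01 ± 0.08, adjusted p = 2.3e-06). Its levels were 122.5 and 116.7 CPM in WT against 97.0 and 117.2 CPM in SDHA-KO CD4 cells, which overlapped, and 111.1 and 118.6 against 200.03 and 210.9 CPM in CD8 cells, which did not. Chchd4 differed by 0.79 ± 0.08, Tomm40 by 0.70 ± 0.07, Timm50 by 0.68 ± 0.08 and Tomm20 by 0.55 ± 0.06. Timm50 was 66.4 and 69.4 CPM in WT and 67.7 and 78.4 CPM in SDHA-KO CD4 cells, which overlapped, and 69.0 and 64.8 against 110.8 and 118.1 CPM in CD8 cells. Chchd4 in CD4 cells was 42.8 and 43.9 against 53.2 and 66.2 CPM, a smaller gap than in CD8 cells. Tomm40 in stimulated CD4 cells was 159.7 and 153.7 CPM in WT and 158.1 and 174.6 CPM in SDHA-KO, whereas in CD8 cells it was 171.7 and 158.1 against 275.6 and 291.7 CPM. Tomm20, the main presequence receptor, was 446.0 and 463.2 CPM in WT CD8 cells and 677.2 and 726.1 CPM in SDHA-KO. The class difference covered all 7 IMS genes, 5 of 8 TOM genes and 3 of 4 PAM genes, and 1 of 3 SAM genes. The 2 lower members were Timm17b (-0.26 ± 0.07) and Timmdc1 (-0.33 ± 0.10). In cells under 10% 20 members were called for the class difference, 19 of them higher, against 21.6% of all genes.

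Between the classes of WT cells the differences were fewer. In unstimulated WT, 7 members were higher in CD8 and 0 lower, against 15.2% of all genes called (7.98% higher, 7.19% lower), led by Timm10 (0.73 ± 0.15) and Tomm5 (0.47 ± 0.07). In stimulated WT, 2 were higher and 6 lower, against 26% called (12.2% higher, 13.8% lower), with Mtx2 lowest in CD8 (-0.37 ± 0.05). The first count rested on single libraries, as it was 3 and 1 without WT unstimulated replicate 1 and 2, and the second was 5 and 4 without the stimulated WT replicates. Both splits changed with scaling by library totals alone, to 2 higher and 3 lower, and to 6 higher and 5 lower.

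The CD8 class held cells without CD8 transcripts. A stricter class kept cells with a Cd8a or Cd8b1 UMI and no Cd4 or Trdc UMI, and, for CD4, a Cd4 UMI and no Cd8a, Cd8b1 or Trdc UMI. It kept 85.0 and 87.2% of stimulated WT CD8 cells and 33.1 and 37.1% of SDHA-KO ones, and 56.0 to 59.3% of all stimulated CD4 libraries. Sdha in the strict stimulated SDHA-KO CD8 cells was 29.1 and 26.9 CPM. In strict cells 26 members were called in stimulated CD8, 25 higher and 1 lower against 49.5% of all genes, and 20 in CD4, 19 higher and 1 lower against 41% of all genes. The median of the members in strict CD8 cells was 0.56, and Tomm6 was also called higher there (0.22 ± 0.09). In strict cells the class difference was called for 16 members, 15 higher in CD8 and Timmdc1 (-0.39 ± 0.12) lower against 14.5% of all genes, with a median of 0.23. The SDHA-KO effect on Timm10 was 1.47 ± 0.09, on Timm17a 1.11 ± 0.08 and on Chchd4 1.15 ± 0.09 in strict CD8 cells. Values for the TOM receptors and the pore were smaller than in all CD8 cells, at 0.36 ± 0.10 for Tomm20, 0.38 ± 0.09 for Tomm22 and 0.54 ± 0.10 for Tomm40, and Tomm70a was not called (0.14 ± 0.09). Timm8a1 was 0.46 ± 0.10.

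Cells that were both strict and under 10%, a combination chosen after seeing the data, gave 12 members higher and 2 lower in stimulated CD8 cells, against 32.8% of all genes called and with a median of 0.23 over the members. The lower ones were Tomm6 and Timm44. Timm10 (1.07), Timm9 (0.96), Chchd4 (0.84) and Timm17a (0.76) were still called. Tomm40 (0.26), Timm50 (0.20), Tomm20 (0.042), Tomm22 (0.012) and Timm8a1 (-0.027) were not. The class difference was called for 15 members in these cells, against 11.3% of all genes, with values of 0.55 for Timm8a1, 0.66 for Chchd4, 0.47 for Timm50, 0.42 for Tomm40 and 0.28 for Tomm20. In stimulated CD4 cells 13 members were called, against 29.6% of all genes, with the same 4 sign changes as in cells under 10%. The γδ markers, the mitochondrial fraction and the coreceptor share moved with genotype in the CD8 class, and their part in the result was tested only through these subsets of cells. The B cell markers were high in stimulated SDHA-KO CD8 replicate 1. Neither selection of cells used them, so their part was not tested.

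Within the subsets annotated by the study, the sum of the members was counted as CPM of UMIs from nuclear genes. Of 10 stimulated CD4 subsets with at least 10 cells in each library, both SDHA-KO libraries lay above both WT libraries in 8, and the libraries overlapped in 2. All 8 stimulated CD8 subsets of that size had SDHA-KO above WT. The highest sums were in CD8 Tem2, with 5178 and 5074 in WT and 7353 and 7485 in SDHA-KO, and in CD4 Tem3, with 5081 and 5117 against 6021 and 6183. The overlapping CD4 subsets were Tem1, with 3438 and 3664 in WT and 3629 and 3854 in SDHA-KO, and Tcm5. Of 12 unstimulated subsets, 9 overlapped. The subsets were drawn from the expression of all genes, so they are given as a description with no test. The mitochondrial share of UMIs still differed by genotype in some, as in CD8 Tem6 (16.6 and 13.8% in WT, 2.11 and 1.72% in SDHA-KO). It overlapped in others, as in CD8 Tem3 (3.21 and 2.83% against 3.18 and 3.78%). CD8 Tem6 held 10 and 17 WT cells against 43 and 44 SDHA-KO cells. The same order was not counted for other genes.

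**Figure D5:**
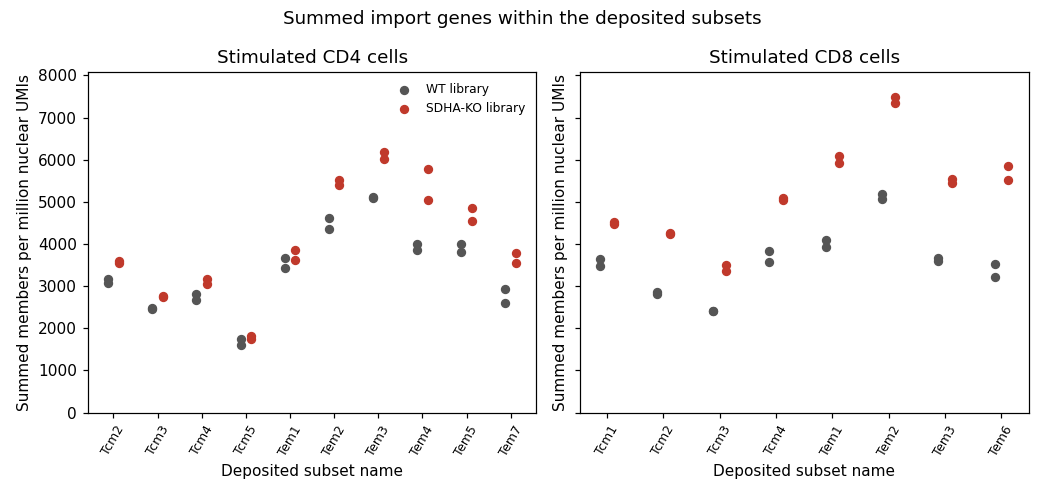
Sum of the 34 import genes as CPM of nuclear UMIs (y axis, from 0) in each library of stimulated WT and SDHA-KO cells within the deposited subsets of at least 10 cells (x axis). SDHA-KO libraries lie above WT libraries in all 8 CD8 subsets and in 8 of 10 CD4 subsets, with overlap in CD4 Tem1 and Tcm5.

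A list of 19 related genes of import, processing and folding was followed beside the members. In stimulated CD4 cells 7 were higher and 1 lower in SDHA-KO, a share close to the 43.2% of all genes called, with a median of 0.17. In CD8 cells 12 were higher and 2 lower against 50.4% of all genes, with a median of 0.34. In cells under 10% the list gave 4 higher and 3 lower in CD4, against 32.8% of all genes, and 7 higher and 0 lower in CD8, against 35.4%, with medians of -0.060 and 0.16. The matrix chaperonins rose in both classes over all cells, Hspd1 by 0.46 ± 0.10 and 0.96 ± 0.07 and Hspe1 by 0.28 ± 0.08 and 0.75 ± 0.07. Hspd1 was 667.7 and 634.8 CPM in stimulated WT CD8 cells and 1267 and 1260 CPM in SDHA-KO. The oxidase Gfer, which reoxidizes Chchd4, rose by 0.41 ± 0.09 in CD4 and 0.60 ± 0.07 in CD8 cells.

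These 3 rises lost their calls in CD4 cells under 10%. Hspe1 there was 1050.8 and 989.5 CPM in WT and 931.3 and 995.9 CPM in SDHA-KO, with overlap and a sign turned to -0.082 ± 0.079. Hspd1 was 0.17 ± 0.10 and Gfer 0.066 ± 0.088. In CD8 cells under 10% all 3 were called, with 0.63 ± 0.07 for Hspd1, 0.35 ± 0.07 for Hspe1 and 0.23 ± 0.07 for Gfer.

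The import motor Hspa9 was called higher in CD8 (0.32 ± 0.08) and not called in CD4 cells (-0.11 ± 0.07). In cells under 10% it was lower in CD4 (-0.29 ± 0.07) and not called in CD8 (0.11 ± 0.08). Aifm1, which anchors Chchd4, fell in both classes over all cells (-0.34 ± 0.07 and -0.26 ± 0.07), and under 10% the call held in CD4 (-0.38 ± 0.08) and was lost in CD8 (-0.21 ± 0.09).

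Without stimulation 0 of the 19 were called by genotype in CD4 cells, against 1.1% of all genes, and 1 in CD8 cells, against 0.947%. It was Dnajc15, a J protein related to Dnajc19, named after its value was seen, at 496.1 and 538.5 CPM in WT and 280.0 and 260.8 CPM in SDHA-KO without overlap (-0.94 ± 0.09). With stimulation in WT cells, 14 of the 19 rose and 2 fell in CD4, against 66.3% of all genes called, and 11 rose and 3 fell in CD8, against 65.7%, with Hspd1 at 2.97 ± 0.11 and 2.70 ± 0.08.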

How the data were processed

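The authors made 10x Genomics 3′ HT libraries, aligned reads with Cell Ranger (mm10 per the labels, version not given in the sources used here), and removed clusters without CD3 genes and cells above a limit of detected genes. They deposited raw UMI counts per gene and cell, with a table giving library, class and subset of each cell, its counts of UMIs and genes, and the percent of UMIs on 13 mitochondrially encoded genes. A deposited log10 ratio of Cd4 to Cd8a UMIs was not used. Libraries are abbreviated in that table, and nt and tr were read as unstimulated and stimulated by their genotype and replicate number, which no source spells out. Here UMIs were summed per library and class. Genes were kept with filterByExpr of edgeR 4.0.16 (minimum count 10, total 15), scaled by TMM and tested with glmQLFit and glmQLFTest on 4 groups of 2 libraries (4 residual degrees of freedom). Classes were compared in 1 fit of all 16 sums with library as a block. An adjusted p under 0.05 was a call. For a single gene, CPM is UMIs over the product of the library total and its TMM factor. For summed members or markers, CPM is UMIs over the library total alone. The factors ran from 0.92 to 1.09 in CD4 and from 0.83 to 1.18 in CD8. The relative spread between replicates was 8.73% in CD4, 8.24% in CD8 and 5.30% in the joint fit. The libraries of a group differed by more than counting error, with chi-square per degree of freedom from 1.54 to 13.6. Values in every library are given for the 3 largest rises and falls among called members of at least 20 CPM in the comparisons of genotype after stimulation and of state in WT, for the 5 members of lowest p in the class difference, and for the most abundant member of each module. Other genes are named with their module or where a call changed, after their values were seen. The members and lists were chosen with earlier results of these data known. The tests were also run on simulated counts, and the outcome is not given here. Alternatives were RLE factors, no scaling for composition, no filter, DESeq2 1.42.0, other cells, a replicate block, fewer groups, and each library left out. No doublet caller was run and free RNA was not removed. R 4.3.3 and Python 3.11.15 were used.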

Additional observations from a re-analysis of the deposited data

Results flagged for a closer look

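These results are singled out because a test of the difference itself separated the SDHA-KO effect in 2 kinds of cells. Between stimulated and unstimulated cells the effect differed for 11 members in CD4 and 22 in CD8 cells, against 21.4% and 23.8% of all genes, and between CD8 and CD4 stimulated cells for 21, against 25.4%. The CD4 count of 11 was 4 in cells with a mitochondrial share under 10%, against 14.2% of all genes, and 3 without WT unstimulated replicate 2 or SDHA-KO unstimulated replicate 2. The CD8 count of 22 was 9 in cells under 10%, against 11.1% of all genes. The class difference of 21 was 16 in strict coreceptor cells, against 14.5%. The 5 members named for the class difference were Timm8a1 with 1.01, Chchd4 with 0.79, Tomm40 with 0.70, Timm50 with 0.68 and Tomm20 with 0.55 on the log2 scale. In cells with a mitochondrial share under 10% those 5 values were 0.98, 0.79, 0.70, 0.69 and 0.57, and in strict coreceptor cells 0.59, 0.64, 0.39, 0.39 and 0.25. All 5 were called in both. In strict cells under 10%, however, the SDHA-KO effect within CD8 was not called for Timm8a1, Tomm40, Timm50 and Tomm20, as given above. The γδ marker sum and the coreceptor share moved with genotype in the CD8 class, and their part was tested only through the strict cells.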

How the results depend on the processing

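Of the alternatives to the counts of members called, 207 stayed within 1.5 times and 22 did not. In cells under 10%, the count for SDHA-KO against WT in stimulated CD4 went from 20 to 12, and the counts for the effect of state from 11 to 4 in CD4 and from 22 to 9 in CD8. In strict cells the CD4 effect of state gave 7. In strict cells under 10%, the counts were 13 in stimulated CD4, 14 in stimulated CD8, and 4 and 7 for the effect of state in CD4 and CD8. In cells under 10% without scaling for composition the latter were 7 and 10. CD8 against CD4 in unstimulated WT gave 7, and 4 by DESeq2 and in cells under 10% without scaling for composition. Strict cells under 10%, and cells under 10% without scaling for composition, were chosen after seeing the data.

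Leaving out each library in turn gave 14 to 21 members for SDHA-KO against WT in stimulated CD4, 22 to 27 in stimulated CD8, 3 to 17 and 15 to 22 for the effect of state in CD4 and CD8, 16 to 21 for the class difference, and 0 in unstimulated cells. It gave 1 to 7 for CD8 against CD4 in unstimulated WT, with 3 without WT unstimulated replicate 1 and 1 without replicate 2. In stimulated WT it gave 4 to 10, with 5 without WT stimulated replicate 1 and 4 without replicate 2. With stimulation it gave 21 to 26 in WT CD4, 20 to 24 in WT CD8, and 26 to 27 in both SDHA-KO classes. A library alone in its group was assumed to vary like the others.

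Signs reversed as follows. For SDHA-KO against WT in stimulated CD4, cells under 10% and strict cells under 10% gave -0.071 and -0.11 for Grpel1, -0.11 and -0.12 for Timm10b, -0.015 and -0.036 for Timm8b, and -0.028 and -0.053 for Pam16. For stimulated CD8, strict cells under 10% gave -0.054 for Tomm70a and -0.027 for Timm8a1. Timm17b gave -0.11 in cells under 10% and -0.029 there without scaling for composition, where Timmdc1 gave 0.021. For stimulation in WT CD8, no scaling for composition, cells under 10%, strict cells under 10% and cells under 10% without scaling gave 0.018, 0.082, 0.082 and 0.37 for Tomm7, and 0.30, 0.33, 0.30 and 0.61 for Timm10b. The last of these gave 0.066 for Tomm34. The class difference of Timm17b was 0.090 in strict cells and 0.096 in strict cells under 10%. The causes were not tested. Among the single members, 129 alternatives lost the call and 1194 kept it.

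Replicates of the same number did not deviate together (correlations of -0.16 to 0.04), so the numbers name libraries only. With a replicate block the counts were 20 in stimulated CD4, 26 in stimulated CD8, and 8 and 22 for the effect of state. Depth limits Timm29 and Tomm40l, the members of lowest count, which had the widest errors.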
